A study of Mus musculus with 24 samples.

Results

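Baseline gene expression in the dorsal hippocampus was compared between untrained CBP KIX/KIX mice and untrained wild-type (WT) littermates. The members are 4 CBP KIX/KIX and 3 WT homecage libraries of RNA-Seq 2, that is 7 of the 24 libraries of the series, taken by genotype and housing condition. Values are those of the 7 libraries unless stated, and the main counts are also given without replicate 3 of the CBP KIX/KIX group. That library was known beforehand for activity-induced genes far above those of the other 6 libraries.

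CBP, encoded by Crebbp, is a transcriptional co-activator and histone acetyltransferase that is brought to genes by the transcription factors it binds. Its KIX domain is the docking site for CREB once CREB has been phosphorylated, and also for c-Myb and other activators. In the hippocampus, CREB and CBP are known for activity-induced transcription during memory consolidation, and CBP also acts with CLOCK and BMAL1, the activators of the circadian clock.

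All 7 mice were C57BL/6j males, 2 to 4 months old. The mutant mice carried, in every cell of the body, 2 knock-in alleles of Crebbp with 3 point mutations that block binding of phosphorylated CREB and of c-Myb to the KIX domain, and WT littermates came from the same matings of heterozygous parents. Both groups were handled but received neither contextual fear conditioning (CFC) nor Morris water maze (MWM) training. Sequencing libraries of RNA-Seq 2 were made from polyA-selected RNA, as the methods of the study state. The other libraries used for comparison came from 4 WT and 4 CBP KIX/KIX mice after CFC in RNA-Seq 2, and from 3 WT and 3 CBP KIX/KIX mice after MWM training in RNA-Seq 1, which used total RNA with ribosomal depletion. Because the alleles were carried from conception, a lasting change of the tissue and a change in transcription at the time of dissection cannot be told apart in these libraries. In bulk tissue, fewer cells of a type and less RNA per cell cannot be told apart.

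The 7 libraries held 15385836 to 46056290 counts. Replicates 1 and 2 of both genotypes were the deep ones and replicates 3 and 4 held 15385836 to 16567226 counts, so that depth did not follow genotype. Mitochondrially encoded transcripts took 4.09% to 4.70% of the counts. On the first principal component, which held 38.6% of the variance, CBP KIX/KIX replicates 3 and 4 lay at 35.6 and 46.5 and the other 5 libraries between -25.9 and -8.22. All 8 markers of hippocampal excitatory neurons were expressed, with a summed level of 7115 to 8199 CPM (read counts scaled to the library's total after upper-quartile normalisation) over the 7 libraries. Markers of the choroid plexus, a tissue that borders the hippocampus, varied between libraries of both genotypes, with summed levels of 55.8, 1926 and 57.2 CPM in WT and 268, 155, 2994 and 863 CPM in CBP KIX/KIX libraries. Their part in the results below was not tested.

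Crebbp itself was measured at similar levels in both genotypes. Its level was 77.5, 68.3 and 75.3 CPM in WT replicates 1 to 3, and 75.4, 66.7, 73.7 and 65.0 CPM in CBP KIX/KIX replicates 1 to 4, so the groups overlapped. The log2 fold change, CBP KIX/KIX over WT, was -0.07 ± 0.07 (SE, edgeR quasi-likelihood test, Benjamini-Hochberg adjusted p = 0.910). That of Ep300, which encodes the related co-activator p300, was -0.06 ± 0.09. A point mutation need not alter the amount of a transcript, so these counts do not check the genotype.

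Across all genes, few passed the test for a baseline difference between the genotypes. Of 18682 genes tested in the 7 libraries, 2 passed an adjusted p of 0.05 in edgeR (0.0107%), and both, Papss2 and Col6a4, fell in CBP KIX/KIX mice. At an unadjusted p under 0.05 there were 590 genes lower in CBP KIX/KIX mice (3.16%) and 554 higher (2.97%). The median log2 fold change over all genes was -0.00, and the median standard error was 0.124. With the genes split into 4 groups by abundance, the median standard error was 0.345 in the lowest and 0.0694 in the highest group, so that small differences were measurable for abundant genes and not for rare ones. Without CBP KIX/KIX replicate 3, 18401 genes were tested and 0 passed the adjusted threshold in edgeR. The smallest adjusted p was then 0.0504, shared by Papss2 and Col6a4, with 450 genes lower (2.45%) and 330 higher (1.79%) at an unadjusted p under 0.05. DESeq2 called 57 genes in the 7 libraries and 32 in the 6.

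Papss2, which encodes the enzyme that makes the sulfate donor PAPS (ENSMUSG00000024899.6, chr19:32595790-32667187 on GRCm38, plus strand), was the most uniform of the differences. Its level was 17.7, 17.3 and 17.1 CPM in WT and 8.82, 8.53, 9.81 and 9.45 CPM in CBP KIX/KIX libraries. Every CBP KIX/KIX library lay below every WT library, and the spread within each group was small. The mean fell by 47.4%, from 17.3 ± 0.300 CPM (SD, n = 3) to 9.15 ± 0.587 CPM (SD, n = 4), with a log2 fold change of -0.93 ± 0.09 (SE, edgeR adjusted p = 0.0165). The log2 fold change was -0.96 ± 0.09 without CBP KIX/KIX replicate 3. The call was lost on leaving out any of 5 libraries, with edgeR adjusted p of 0.172, 0.134 and 0.158 without WT replicates 1, 2 and 3, and 0.111 and 0.0504 without CBP KIX/KIX replicates 2 and 3, while the log2 fold change stayed between -0.96 and -0.90.

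Col6a4, which encodes a chain of collagen VI (chr9:105989454-106096783, minus strand), was the larger difference. Its level was 11.9, 9.29 and 7.61 CPM in WT and 1.48, 1.85, 1.70 and 2.32 CPM in CBP KIX/KIX libraries. The highest CBP KIX/KIX library was far below the lowest WT library. The mean fell by 81.2%, with a log2 fold change of -2.41 ± 0.20 (SE, edgeR adjusted p = 0.0120) and of -2.39 ± 0.23 without CBP KIX/KIX replicate 3. The edgeR adjusted p rose to 0.0712 and 0.0709 without WT replicates 1 and 2, and to 0.111 and 0.0504 without CBP KIX/KIX replicates 2 and 3, and was 0.284 with the spread estimated over all RNA-Seq 2 libraries.

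The gene classes of Papss2 and Col6a4 were also counted, beside 3.16% of all genes lower and 2.97% higher at an unadjusted p under 0.05. Of 43 genes of sulfate activation, sulfur amino acids and sulfotransferases, 3 were lower and 3 higher at an unadjusted p under 0.05, with a median log2 fold change of -0.03. Without CBP KIX/KIX replicate 3, 2 of them were lower and 1 higher at that p, beside 2.45% and 1.79% of all genes. Of 56 collagens and other matrix genes, 6 were lower and 5 higher, with a median of 0.15 in the 7 libraries and 0.01 without CBP KIX/KIX replicate 3. The count of matrix genes higher moved with single libraries, to 19 without WT replicate 2, 13 without CBP KIX/KIX replicate 1, and 3 without WT replicate 1, WT replicate 3 or CBP KIX/KIX replicate 3. WT replicate 2 and CBP KIX/KIX replicate 3 were the libraries with the highest choroid plexus markers, and the part of these in the count was not tested. Col15a1, a basement membrane collagen, was at 9.10, 9.72 and 10.1 CPM in WT and 7.64, 5.89, 5.70 and 5.76 CPM in CBP KIX/KIX libraries, without overlap.

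**Figure D1:**
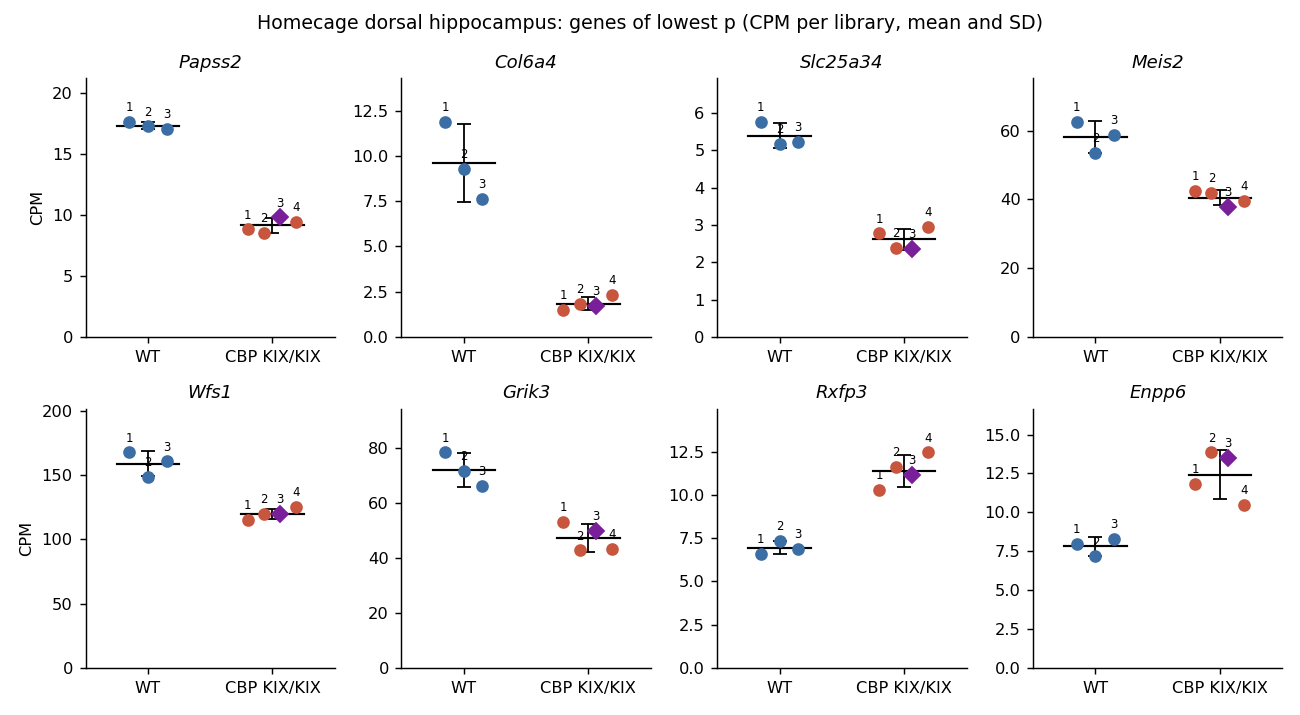
Level in CPM (vertical axis, from 0) of genes with the lowest p in the homecage comparison, 1 point per library with its replicate number, for 3 WT and 4 CBP KIX/KIX libraries, with a line at the mean and error bars of 1 SD. A diamond marks CBP KIX/KIX replicate 3. Papss2 lay between 17.1 and 17.7 CPM in WT and between 8.53 and 9.81 CPM in CBP KIX/KIX libraries.

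Further genes with low p-values did not pass the adjusted threshold, and their groups did not overlap. Over all genes tested, 653 lay lower in every CBP KIX/KIX library than in every WT library (3.5%) and 640 lay higher (3.43%). Slc25a34, a member of the mitochondrial carrier family (chr4:141618824-141623821), was at 5.77, 5.17 and 5.22 CPM in WT and 2.78, 2.39, 2.36 and 2.94 CPM in CBP KIX/KIX libraries, a log2 fold change of -1.04 ± 0.14 (edgeR adjusted p = 0.189). Among 41 mitochondrial carriers tested, 1 was lower and 5 were higher at an unadjusted p under 0.05, where 3.16% of all genes were lower and 2.97% higher. Without CBP KIX/KIX replicate 3, 1 was lower and 3 were higher at that p, beside 2.45% and 1.79% of all genes. Dsc3, which encodes the desmosomal cadherin desmocollin 3, was at 4.73, 3.85 and 5.03 CPM in WT and 1.81, 1.81, 2.48 and 1.69 CPM in CBP KIX/KIX libraries. Kitl, the ligand of the receptor Kit, was at 24.6, 29.99 and 26.5 CPM against 18.5, 16.03, 15.4 and 17.8 CPM. In both, the WT level was well above the scatter of the CBP KIX/KIX libraries.

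More abundant genes of this kind were Wfs1, Grik3 and Meis2. Wfs1, which encodes the endoplasmic reticulum protein wolframin and marks CA1 neurons, was at 168, 148 and 161 CPM in WT and 115, 120, 120 and 125 CPM in CBP KIX/KIX libraries (log2 fold change -0.41 ± 0.06). Meis2, a homeodomain transcription factor, was at 62.6, 53.4 and 58.7 CPM against 42.6, 42.0, 37.9 and 39.6 CPM (log2 fold change -0.52 ± 0.07). Grik3, a kainate receptor subunit, was at 78.3, 71.5 and 66.1 CPM against 53.0, 42.7, 49.7 and 43.1 CPM (log2 fold change -0.61 ± 0.09). For all 3 genes the edgeR adjusted p was 0.189. Cplx3, a complexin of transmitter release, had a log2 fold change of -0.94 ± 0.14. Bglap3, of the osteocalcin genes, whose near-identical copies can share reads, had one of -1.67 ± 0.27 and is uncertain for that reason.

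Among genes higher in CBP KIX/KIX mice, Rxfp3, the receptor of the neuropeptide relaxin-3, had the lowest p. Its level was 6.61, 7.34 and 6.90 CPM in WT and 10.3, 11.6, 11.1 and 12.5 CPM in CBP KIX/KIX libraries, without overlap (log2 fold change 0.71 ± 0.11, edgeR adjusted p = 0.189). Enpp6, a choline phosphodiesterase of newly formed oligodendrocytes, was at 7.95, 7.16 and 8.32 CPM against 11.8, 13.9, 13.5 and 10.46 CPM (log2 fold change 0.68 ± 0.12). Homer3, a postsynaptic scaffold protein, was at 40.2, 39.1 and 40.5 CPM against 46.6, 54.9, 59.98 and 54.0 CPM. Rgs14, a signalling regulator known from CA2 neurons, was at 112, 109 and 105 CPM against 127, 128, 128 and 127 CPM. In each of these genes every CBP KIX/KIX library lay above every WT library. Far2os1, an antisense transcript, had a log2 fold change of 1.90 ± 0.35 and lies opposite another gene, and the strand setting of the counting is not given in the sources used here.

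Clock genes were more often lower than higher in CBP KIX/KIX mice. Of 25 genes of the circadian clock and its direct outputs, all tested, 19 were lower and 6 higher in CBP KIX/KIX mice, 11 were lower and 0 higher at an unadjusted p under 0.05, and the groups of 8 did not overlap. Over all genes tested, 3.16% were lower at that p and 3.5% lower without overlap. None of the 25 passed the adjusted threshold in edgeR. The median log2 fold change was -0.10 over the list and -0.00 over all genes. Without CBP KIX/KIX replicate 3, 10 genes were lower and 0 higher at that p, and the median was again -0.10. On leaving out CBP KIX/KIX replicate 4, 14 of the 25 were lower and 11 higher, and the median was -0.04, with 10 lower and 0 higher at that p. The median was -0.17 without CBP KIX/KIX replicate 1. The count of 11 went down to 7 without WT replicate 3.

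Repressors and outputs of the clock were among the lower genes. Nr1d2, which encodes the nuclear receptor REV-ERB beta, a repressor of the clock, was at 83.1, 91.5 and 99.9 CPM in WT and 73.3, 64.7, 67.0 and 63.2 CPM in CBP KIX/KIX libraries (log2 fold change -0.44 ± 0.08, edgeR adjusted p = 0.329). Its relative Nr1d1 was at 85.5, 80.4 and 76.5 CPM against 67.0, 54.4, 51.0 and 68.4 CPM (log2 fold change -0.43 ± 0.11). Neither gene overlapped between the groups. Per2, a repressor of CLOCK and BMAL1, was at 41.6, 43.7 and 43.8 CPM against 35.5, 35.4, 40.5 and 34.7 CPM (log2 fold change -0.24 ± 0.07). Ciart, which encodes another repressor of the clock, was at 9.64, 10.9 and 10.1 CPM against 8.33, 6.13, 7.15 and 4.82 CPM (log2 fold change -0.62 ± 0.17). Replicate 1 was the CBP KIX/KIX library closest to WT for Ciart.

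Per3, Hlf and Dbp were lowest in CBP KIX/KIX replicates 3 and 4. Per3 was at 54.8, 57.0 and 66.9 CPM in WT and 51.8, 41.2, 35.0 and 25.98 CPM in CBP KIX/KIX libraries (log2 fold change -0.61 ± 0.19). Hlf, one of the D-box binding factors with Dbp and Tef, was at 157, 149 and 172 CPM against 142, 113, 81.2 and 54.3 CPM (log2 fold change -0.70 ± 0.26). Both fell short of the adjusted threshold, and in both replicate 1 lay just below WT and replicate 4 at the bottom. Dbp was at 44.8, 47.6 and 32.1 CPM against 33.1, 29.7, 18.9 and 19.8 CPM, and the groups overlapped. Per1 was at 86.0, 74.0 and 71.9 CPM against 75.3, 53.6, 133 and 46.3 CPM, with a log2 fold change of -0.01 ± 0.31 in 7 libraries and -0.40 ± 0.17 without CBP KIX/KIX replicate 3. Replicate 3 thus had the highest Per1 level and replicate 4 the lowest. Other members went the opposite way in these libraries. Bhlhe41, a repressor of the clock, was at 31.9, 30.8 and 30.9 CPM in WT and 29.1, 35.6, 38.8 and 68.2 CPM in CBP KIX/KIX libraries (log2 fold change 0.45 ± 0.25), and Nfil3, a D-box repressor, was at 8.27, 8.39 and 9.93 CPM against 9.67, 9.29, 21.9 and 9.02 CPM (log2 fold change 0.48 ± 0.31). Of the 25 genes, CBP KIX/KIX replicates 1, 2, 3 and 4 lay below all WT libraries in 9, 13, 14 and 20, and the summed level was 1898, 1883 and 1931 CPM in WT against 1836, 1642, 1610 and 1412 CPM. Arntl, which encodes BMAL1, and Clock, the activators, had log2 fold changes of 0.06 and 0.13.

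**Figure D2:**
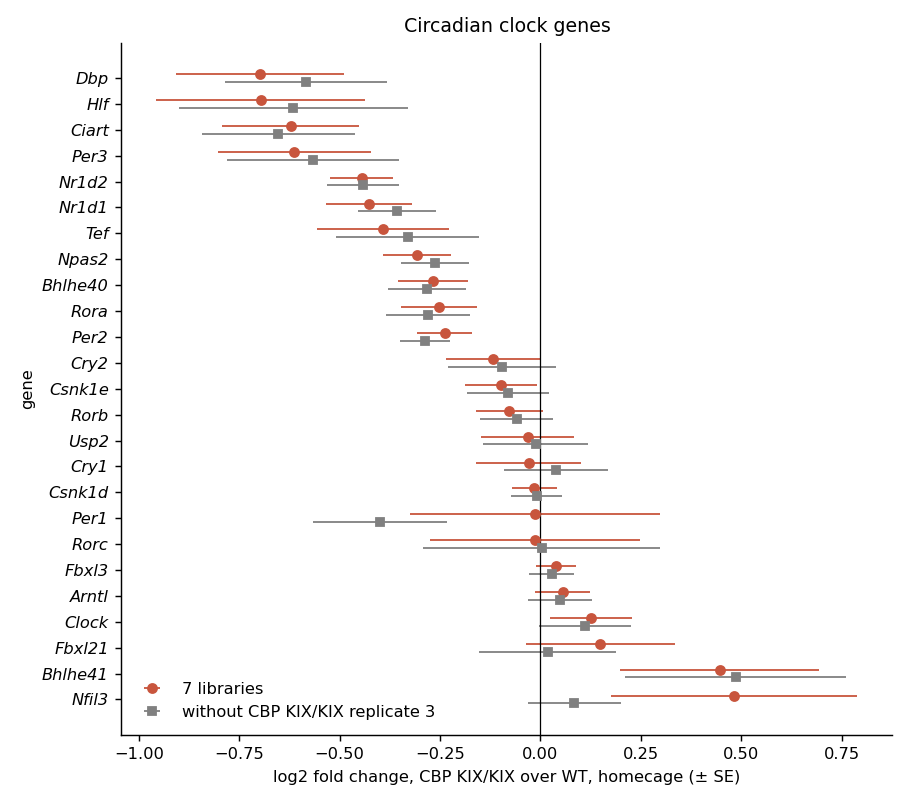
Log2 fold change of CBP KIX/KIX over WT in the homecage (horizontal axis, bars are ± SE) for the 25 clock genes, as circles for the 7 libraries and squares without CBP KIX/KIX replicate 3. The 19 genes below 0 in the 7 libraries run from Dbp at -0.70 upward, and Per1 moves from -0.01 to -0.40 without replicate 3.

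The promoters of the clock outputs Ciart and Per3 are shown because they hold the letters through which CLOCK and BMAL1 (the E-box, CACGTG) and Dbp, Hlf and Tef (the D-box, TTATGTAA) act. Windows of 250 bases before the RefSeq start (GRCm38.p6) were searched on both strands. Capitals mark the E-box in Ciart (chr3:95882229-95882478, minus strand) and the D-box in Per3 (chr4:151044666-151044915, minus strand).
Ciart: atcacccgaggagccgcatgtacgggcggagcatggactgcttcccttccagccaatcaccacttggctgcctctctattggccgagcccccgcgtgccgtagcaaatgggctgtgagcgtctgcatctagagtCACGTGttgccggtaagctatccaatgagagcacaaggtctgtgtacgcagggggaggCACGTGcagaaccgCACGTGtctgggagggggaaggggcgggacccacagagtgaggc
Per3: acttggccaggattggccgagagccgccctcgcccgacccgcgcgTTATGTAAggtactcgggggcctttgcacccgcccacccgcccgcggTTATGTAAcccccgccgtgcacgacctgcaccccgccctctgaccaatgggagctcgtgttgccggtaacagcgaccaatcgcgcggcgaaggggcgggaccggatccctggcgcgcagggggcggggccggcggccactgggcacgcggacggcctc
The E-box occurred 3 times in the Ciart window, at -116, -58 and -44 from the start, and the D-box 2 times in that of Per3, at -205 and -158. Over all 32851 windows of this length, 6.02% held the E-box and 0.819% the D-box. Of the 20 clock genes with a window, 5 held the E-box and 1 the D-box in at least 1 window. Counted the same way by gene, 1195 of 12943 tested genes with a window held the E-box and 94 the D-box. These letters are a description and show no binding.

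Activity-induced genes were set apart by 1 library. Of 46 immediate-early and other activity-induced genes, all tested, 45 were higher in the CBP KIX/KIX group and 5 were higher and 0 lower at an unadjusted p under 0.05 (2.97% and 3.16% of all genes), and 0 passed the adjusted threshold in edgeR. The median log2 fold change was 0.46. Without CBP KIX/KIX replicate 3, 23 were higher and 23 lower, the median was 0.00, and 2 were higher and 6 lower at that p. Without replicates 3 and 4, a comparison made after both were seen to stand apart, 36 were lower and 10 higher. The count of 5 genes higher became 13 and 15 without CBP KIX/KIX replicates 1 and 2, and 2, 3 and 3 without WT replicates 1, 2 and 3. Over all genes, the count of 554 higher became 1104 and 543, and 319, 569 and 349, in the same order. The summed level was 1508, 1469 and 1463 CPM in WT and 1432, 1400, 4864 and 1989 CPM in CBP KIX/KIX libraries, so that replicate 3 had 3.32 times the median of the other 6 libraries. Replicate 3 was the highest library in 39 of the 46 genes, and in 2496 of the 18682 genes tested. It had been singled out by its activity-induced genes, so its values for this list restate that choice.

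Early genes of the list were high in replicate 3 alone. Fos, an immediate-early transcription factor, was at 3.44, 4.99 and 5.16 CPM in WT and 2.86, 1.83, 117 and 4.76 CPM in CBP KIX/KIX libraries. Npas4, another early transcription factor, was at 131 CPM in replicate 3 and between 5.52 and 10.2 CPM elsewhere. Arc, which encodes a synaptic immediate-early protein, was at 615 CPM in replicate 3 and 53.0 to 77.6 CPM elsewhere. Egr2 was at 39.9 CPM against 0.304 to 0.967 CPM. In these 4 genes the other CBP KIX/KIX libraries overlapped WT.

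Of the 46 genes of the list, 3 lay lower in all CBP KIX/KIX libraries other than replicate 3 than in any WT library, and 1 lay higher. The 3 lower ones are described here. Nr4a2, an activity-induced nuclear receptor, was at 69.6, 80.04 and 61.8 CPM in WT and 45.4, 42.2, 108 and 23.1 CPM in CBP KIX/KIX libraries (log2 fold change -0.38 ± 0.40, and -0.92 ± 0.22 without replicate 3). Sik1, a salt-inducible kinase induced by cAMP, was at 8.78, 9.93 and 8.77 CPM against 6.27, 5.63, 19.0 and 7.39 CPM (0.03 ± 0.39, and -0.52 ± 0.14). Dusp1, a phosphatase of MAP kinases, was at 11.5, 13.8 and 10.6 CPM against 10.3, 9.11, 25.3 and 7.07 CPM (0.09 ± 0.38, and -0.43 ± 0.16). Over all genes tested in the 6 libraries, 4.83% were lower and 5.06% higher without overlap, and none of the 3 passed the adjusted threshold. The count of 3 among 46 is therefore not read as a trait of the list.

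**Figure D3:**
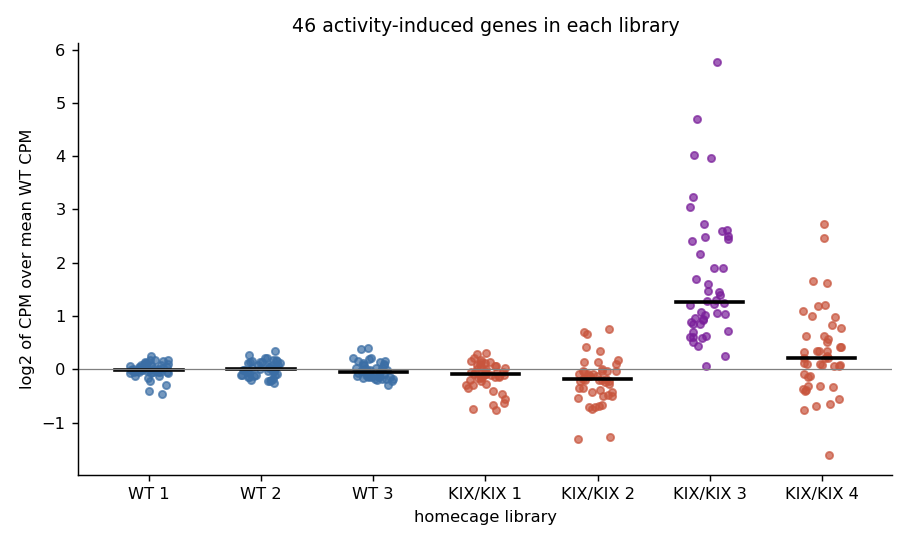
Activity-induced genes per homecage library, as the log2 of each gene's level over its mean WT level, with 1 point per gene and a line at the median. Replicate 3 of the CBP KIX/KIX group stood out, with a median of 1.26 and a highest value of 5.76, while the medians of the other 3 CBP KIX/KIX libraries were -0.09, -0.19 and 0.21.

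The promoters of Nr4a2 and Dusp1 are shown as examples of the activity-induced list. Capitals mark the core letters TGACG of the cAMP response element (CRE) on either strand, so that CGTCA is the same letters on the opposite strand, in Nr4a2 (chr2:57124004-57124253, minus strand) and Dusp1 (chr17:26508473-26508722, minus strand).
Nr4a2: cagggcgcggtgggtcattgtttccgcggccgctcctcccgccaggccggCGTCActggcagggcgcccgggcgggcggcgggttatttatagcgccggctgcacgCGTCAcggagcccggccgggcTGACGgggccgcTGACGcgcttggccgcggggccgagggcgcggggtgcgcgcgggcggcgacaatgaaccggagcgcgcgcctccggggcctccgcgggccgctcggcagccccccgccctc
Dusp1: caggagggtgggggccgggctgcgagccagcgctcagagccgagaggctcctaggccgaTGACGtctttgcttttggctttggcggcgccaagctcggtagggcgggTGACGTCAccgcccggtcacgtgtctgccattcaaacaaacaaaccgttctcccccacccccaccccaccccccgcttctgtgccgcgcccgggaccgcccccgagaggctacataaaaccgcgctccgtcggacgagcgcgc
The Nr4a2 window held the core 4 times, and that of Dusp1 3 times. The full palindrome TGACGTCA, which holds the core on both strands and overlaps it, occurred in the Dusp1 window, where it accounts for 2 of the 3 cores. Of all windows, 17.8% held the core and 1.55% the palindrome. Of the 46 activity-induced genes 36 had a window, of which 25 held the core and 6 the palindrome. Counted the same way by gene, 3648 of 12943 tested genes with a window held the core and 363 the palindrome. The letters were not particular to the windows shown, and they show no binding.

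A further group of genes was high in CBP KIX/KIX replicates 2, 3 and 4 and at the WT level in replicate 1. Penk, the precursor of the enkephalin opioid peptides, was at 28.2, 30.3 and 22.7 CPM in WT and 32.0, 125, 135 and 178 CPM in CBP KIX/KIX libraries (log2 fold change 2.10 ± 0.47, edgeR adjusted p = 0.520). Npy, which encodes neuropeptide Y, was at 36.5, 38.8 and 41.6 CPM against 34.3, 81.9, 113 and 166 CPM (log2 fold change 1.33 ± 0.42). Gfap, a filament protein of astrocytes, was at 333, 370 and 329 CPM against 341, 616, 891 and 1590 CPM (1.32 ± 0.42). In all 3, replicate 1 lay within or close to the WT range and replicate 4 was the highest. Bdnf, the neurotrophin, was at 45.1, 38.6 and 36.4 CPM against 44.1, 67.7, 129 and 127 CPM (1.18 ± 0.34). Nptx2, a synaptic pentraxin, was at 24.1, 27.4 and 23.01 CPM against 18.7, 39.1, 140 and 164 CPM (1.84 ± 0.66). C4b, a complement component, was at 60.5, 66.03 and 53.8 CPM against 79.2, 96.5, 106 and 154 CPM (0.85 ± 0.20), and replicate 1 lay above WT there too. None passed the adjusted threshold. The spread among CBP KIX/KIX libraries of these genes was larger than for Papss2, and 1 library decided the call of Penk, since without CBP KIX/KIX replicate 1 its log2 fold change was 2.41 ± 0.15 (edgeR adjusted p = 0.00172). Of 33 neuropeptides and processing enzymes tested, 7 were higher and 2 lower at an unadjusted p under 0.05, where 2.97% of all genes were higher and 3.16% lower. Without CBP KIX/KIX replicate 3, 7 were higher and 0 lower at that p, beside 1.79% and 2.45% of all genes. With CBP KIX/KIX replicate 1 left out, 12 were higher, and the count of genes higher over all genes went from 554 to 1104.

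**Figure D4:**
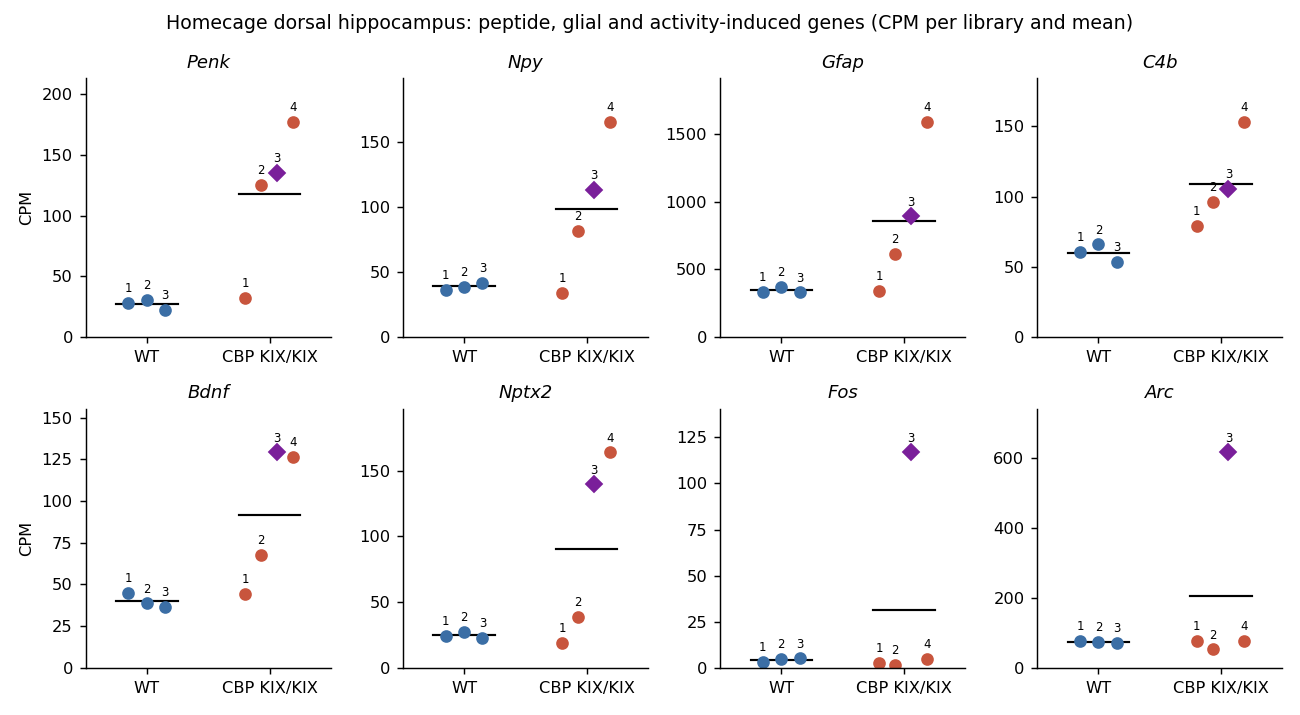
Level in CPM (vertical axis, from 0) of peptide, glial and activity-induced genes per homecage library, with the replicate number beside each point, a line at the mean and a diamond for CBP KIX/KIX replicate 3. CBP KIX/KIX replicate 1 lay near WT for Penk, Npy and Gfap, and replicate 4 was highest.

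Markers of CA1 and of CA2 and CA3 moved with these libraries, in opposite directions. The 6 dentate gyrus markers summed to 443, 387 and 482 CPM in WT and 492, 372, 422 and 432 CPM in CBP KIX/KIX libraries, with replicates 3 and 4 inside the WT range, while their mean log2 CPM was 5.79, 5.63 and 5.91 in WT and 5.94, 5.33, 5.40 and 5.28 in CBP KIX/KIX libraries, with replicates 2, 3 and 4 below WT. All 5 CA1 markers were lower, 3 at an unadjusted p under 0.05, with a summed level of 780, 722 and 724 CPM in WT and 688, 631, 593 and 470 CPM in CBP KIX/KIX libraries. Of 9 markers of CA2 and CA3, 7 were higher, 5 at that p, and 3 at that p without CBP KIX/KIX replicate 3, WT replicate 2 or WT replicate 3. Their summed levels were 910, 894 and 902 CPM against 960, 1134, 1239 and 1405 CPM. Much of these sums was Chgb, at 606 CPM in CBP KIX/KIX replicate 1 and 755 to 967 CPM in the other CBP KIX/KIX libraries. Mean log2 CPM of the 9 markers was 5.04, 5.02 and 5.07 in WT against 5.07, 5.15, 5.32 and 5.43. CBP KIX/KIX replicate 4 was the extreme library in both lists. Of 9 thalamus markers 7 were lower, with sums of 109, 108 and 113 CPM against 97.3, 76.8, 81.1 and 101 CPM. Striatal markers, of which Penk is one, summed to 112, 121 and 99.9 CPM against 101, 208, 260 and 312 CPM. The part of dissection or of cell makeup in these differences was not tested. Of 15 astrocyte markers, 4 were higher and 0 lower at an unadjusted p under 0.05. At that p, 2 were higher without WT replicate 1 and 3 without CBP KIX/KIX replicate 3. Their sums were 6469 to 6798 CPM in WT and 6795, 7042, 7548 and 8617 CPM in CBP KIX/KIX libraries. Over all genes tested in the 7 libraries, 2.97% were higher and 3.16% lower at that p. The count of 554 genes higher over all genes became 319 without WT replicate 1.

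Partners and relatives of CBP were counted in the same way. Over all genes tested in the 7 libraries, 50.7% were lower, and 3.16% were lower and 2.97% higher at an unadjusted p under 0.05. Of 12 transcription factors known to bind the KIX domain, 7 were lower and 5 higher, with 0 at that p. Without CBP KIX/KIX replicate 3, 0 were lower and 1 higher at that p. Of 26 acetylation enzymes, 25 were lower, with a median log2 fold change of -0.07 and 0 lower and 1 higher at that p. Without CBP KIX/KIX replicate 3 the median was -0.05, with 0 lower and 0 higher at that p. Replicates 1, 2, 3 and 4 of the CBP KIX/KIX group lay below all WT libraries in 2, 11, 14 and 17 of the 26. They lay above all WT libraries in 8, 3, 1 and 3. The median of the list was 0.02 after CFC and -0.05 after MWM training. Mitochondrially encoded transcripts, all 13 of which were higher, had a median log2 fold change of 0.13 and 1 at that p, and a median of 0.09 and 1 at that p without CBP KIX/KIX replicate 3.

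The study's list from its own homecage arrays, chosen on other mice of the same line, held 28 genes, of which 26 were tested. On the arrays, which used RNA of whole and not dorsal hippocampus, all genes but Ifi27l2a were lower in CBP KIX/KIX mice. The study holds that the lower array signal for Cbp likely came from the mutated bases under its probe set. Of the 26 genes tested here, 18 were lower and 8 higher, 8 lower and 2 higher at an unadjusted p under 0.05, and Papss2 was called. Over all genes tested, 3.16% were lower and 2.97% higher at that p. There were 21 of 26 lower without CBP KIX/KIX replicate 3, and 23 of 25 after CFC. The list was taken up here with results of these libraries known, so its counts are a description. Tbx1, a T-box transcription factor, was at 2.20, 2.40 and 2.32 CPM in WT and 0.879, 1.39, 0.909 and 1.44 CPM in CBP KIX/KIX libraries (log2 fold change -0.996 ± 0.22). The groups of Tbx1 did not overlap, and it did not pass the adjusted threshold. It lies on chromosome 16, within 20 Mb of Crebbp.

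The homecage differences were set beside those after training, which came from other mice. Papss2 was at 18.2 ± 1.62 CPM in WT (SD, n = 4) and 7.98 ± 0.839 CPM in CBP KIX/KIX mice (SD, n = 4) after CFC, a log2 fold change of -1.20 ± 0.10 (edgeR adjusted p = 0.00299), and had one of -1.22 ± 0.15 after MWM training (edgeR adjusted p = 0.0396). It was the 1 gene called after CFC (0.0057% of 17541) and was among 3 called after MWM training (0.0141% of 21319). Slc25a34 had log2 fold changes of -1.15 ± 0.15 after CFC (edgeR adjusted p = 0.104) and -1.16 ± 0.12 after MWM training (edgeR adjusted p = 0.0140). The homecage values of both genes thus had the sign and about the size of the trained ones. Col6a4 differed from this, with log2 fold changes of -0.69 ± 0.55 after CFC and 0.14 ± 0.27 after MWM training. After CFC its WT libraries ranged from 3.10 to 13.7 CPM and its CBP KIX/KIX libraries from 0.534 to 7.57 CPM, so that the groups overlapped.

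Of the 20 genes with the lowest homecage p, whatever their direction, 16 had the same sign after CFC and 16 after MWM training. Over all genes tested in both, the sign was shared by 50.4% after CFC and 57.2% after MWM training. The 11 clock genes lower at an unadjusted p under 0.05 in the homecage were lower in 11 of 11 cases after CFC, 6 of them at that p, and in 10 of 11 after MWM training, 5 of them at that p. Of the 46 activity-induced genes, 41 were lower after CFC, 19 of them at that p, and 34 after MWM training, 13 of them at that p. Over all genes, 2.01% were lower and 1.46% higher at that p after CFC, and 5.3% lower and 5.19% higher after MWM training.

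The difference between the genotype effects after CFC and in the homecage was tested as an interaction over the 15 libraries of RNA-Seq 2, as the effect after CFC minus that in the homecage. None of 18851 genes passed the adjusted threshold in edgeR, with or without CBP KIX/KIX homecage replicate 3, while 468 were lower (2.48%) and 435 higher (2.31%) at an unadjusted p under 0.05, or 381 (2%) and 291 (1.53%) without that library, and DESeq2 called 1. That gene was Ngb, which encodes the globin of neurons. It was at 5.53, 4.96 and 3.42 CPM in WT and 1.92, 2.22, 1.58 and 2.57 CPM in CBP KIX/KIX homecage libraries, without overlap, whereas its log2 fold change was 0.50 ± 0.19 after CFC, and the interaction was 1.69 ± 0.30 (edgeR adjusted p = 0.830). For Papss2 it was -0.26 ± 0.13 and for Col6a4 1.72 ± 0.72 (edgeR adjusted p = 0.950 for both). Without CBP KIX/KIX homecage replicate 1, 63 genes passed (38 lower and 25 higher), so that the count of 0 depended on that library.

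**Figure D5:**
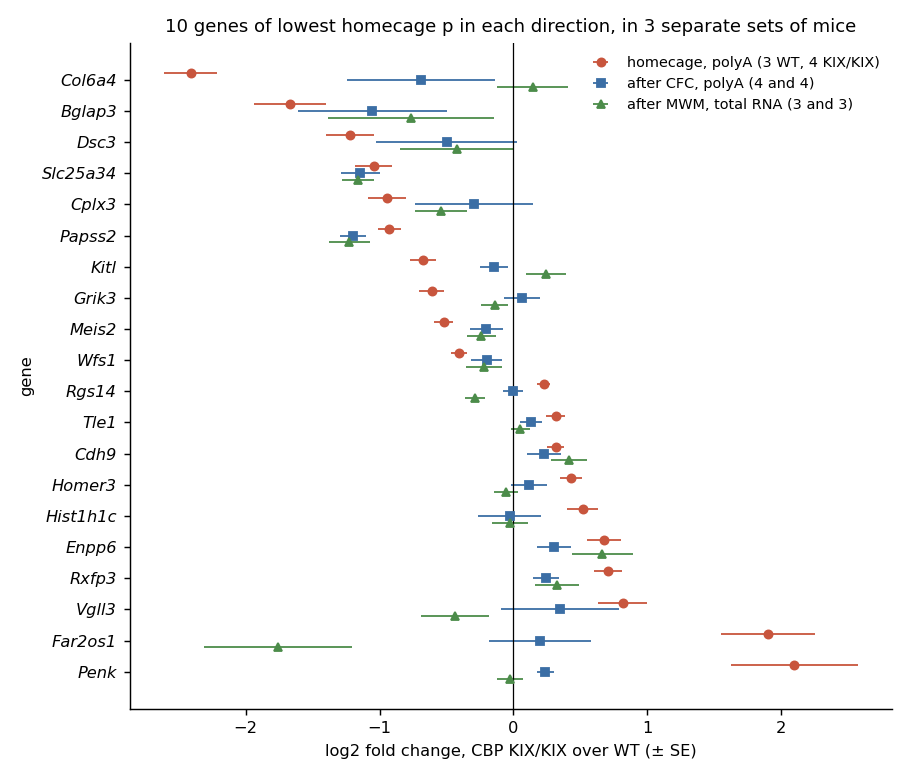
Log2 fold change of CBP KIX/KIX over WT (horizontal axis, bars are ± SE) in homecage, CFC and MWM mice for the 10 genes of lowest homecage p in each direction, 3 separate sets of mice. Papss2 and Slc25a34 lay between -1.22 and -0.93 in all 3 sets, while Col6a4 went from -2.41 in the homecage to 0.14 after MWM training.

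Genes near Crebbp on chromosome 16, which can be inherited together with the mutant allele, were counted separately. Within 10 Mb, 91 genes were tested, 0 passed the adjusted threshold in edgeR, and 4 were lower and 2 higher at an unadjusted p under 0.05, or 6.59% against 6.12% of all genes. That share was 1.92% of 52 genes within 5 Mb and 6.79% of 221 genes within 20 Mb, where Tbx1 had the lowest p. Without CBP KIX/KIX replicate 3, 1, 6 and 13 genes within 5, 10 and 20 Mb were at that p, beside 4.24% of all genes. The part of linked alleles was not tested.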

How the data were processed

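Dorsal hippocampus RNA of single mice was sequenced. The authors aligned reads with STAR to mm10 (GRCm38) in the bcbio pipeline and counted them per gene with featureCounts 1.4.4, and the deposited values are raw counts, with SAMtools 1.6 also named in the submitters' processing notes. The annotation release and strand setting are not given in the sources used here. The study normalised for GC content and upper quartile and tested with edgeR, with 0 RUVr factors at baseline.

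Groups came from the labels. The deposited counts were filtered with filterByExpr, normalised by upper quartile and tested two-sided with edgeR 4.0.16 (glmQLFit, glmQLFTest, R 4.3.3) per comparison, with Benjamini-Hochberg adjustment over all genes tested and a threshold of 0.05. CPM were computed on normalised library sizes. Log2 CPM values use a prior count of 2, and edgeR log2 fold changes use the default of the fit. Scripts were tested on simulated data. A floor of 3 counts was 0.0651 to 0.195 CPM per homecage library. Libraries are separate mice per the study's methods, and p-values measure the spread between them. Replicate pairs differed by more than counting noise (chi-square per gene 5.87 to 26.5).

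The genes named are Crebbp and Ep300, called genes, the 10 with the lowest p in each direction with and without CBP KIX/KIX replicate 3, clock, activity-induced and array-list genes, the 4 lowest-p genes in each direction of every other list, and the 3 in each direction of the interaction. The members, lists and rule were chosen with earlier results of these data known. Alternatives were TMM, DESeq2 1.42.0, other filters, GC correction (values for 99.8% of genes), replicate blocks and leaving out each library.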

Additional observations from a re-analysis of the deposited data

Results flagged for a closer look

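In the 4 CBP KIX/KIX homecage libraries, 81 values (27 lists and 54 genes) were examined for a single library far from the other 3 by Dixon's gap-to-range ratio, and 12 stood out. Chance marks about 1 in 20 such groups. Of the 12, 10 were in replicate 3, 1 in replicate 4 and 1 in replicate 1. Replicate 3 had been singled out by its activity-induced genes, and the values of that list and of its genes among the 10 restate that choice, so the tally is not to be read against chance.

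Replicate 3 was set apart by high values of the activity-induced genes, whose summed level was 4864 CPM, by Fos at 117 CPM, Npas4 at 131 CPM, Arc at 615 CPM, Egr2 at 39.9 CPM and Sik1 at 19.0 CPM. It also had high values of Nfil3, a D-box repressor, at 21.9 CPM, of Per2 at 40.5 CPM, of Dsc3 at 2.48 CPM and of the summed blood markers at 48.2 CPM. Replicate 4 was set apart by a low level of the CA1 marker Mpped1, at 179 CPM. Replicate 1 was set apart by a high level of Col15a1, at 7.64 CPM. What sets these libraries apart was not tested.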

How the results depend on the processing

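In the 7 libraries, 2 genes were called, and 57 (43 lower, 14 higher) with DESeq2, 10 without the filter on low counts, 5 in one fit over all RNA-Seq 2 libraries and 0 with the replicate block. Leaving out 1 library gave 0 to 7, with 7 without CBP KIX/KIX replicate 1 and 0 without WT replicates 1 or 2 or CBP KIX/KIX replicates 2 or 3. Without CBP KIX/KIX replicate 3, 0 genes were called, and 32 with DESeq2, 18 without the filter, 61 (59 lower, 2 higher) with the replicate block, 1 in one fit over all RNA-Seq 2 libraries and 2 with legacy=FALSE quasi-likelihood, an alternative chosen after seeing the data, because the default of this edgeR version is the legacy setting. Leaving out 1 more library gave 0 to 5. For the interaction, 0 were called, 1 with DESeq2 and 0 to 63 on leaving out 1 library. After CFC, 1 was called, 2 with the replicate block and 1 in every fit that left out 1 library. After MWM training, 3 were called, 0 with the replicate block and 0 to 5 on leaving out 1 library. The cause was not tested.

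The labels do not say whether the replicate numbers mark a pairing. The correlations of same-numbered WT and CBP KIX/KIX deviations were 0.318, 0.160 and 0.0732. WT replicates 1 and 2 correlated best with the CBP KIX/KIX library of the same number, and WT replicate 3 with CBP KIX/KIX replicate 4 (0.169). Blocks by replicate number and by numbers 1-2 and 3-4 were fitted, but a batch shared by number was not itself tested. With the block by replicate number in the 7 libraries, the edgeR adjusted p was 0.228 for Papss2 and 0.178 for Col6a4, at log2 fold changes of -0.95 and -2.52. The block of numbers 1-2 and 3-4 gave 2 called genes in the 7 libraries. Under it the median log2 fold change of the activity-induced genes was 0.25, against 0.46 without a block. Papss2 was called in 12 of 18 alternatives and Col6a4 in 12 of 18. Without the filter, genes are tested down to 1 count, where the standard error is largest. DESeq2 gave no adjusted p to 20 genes in 7 libraries and 1081 in 6.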
